A study of Mus musculus with 18 samples.

Results

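Endothelial cells of the Apex and LV regions of the mouse heart were compared in 6 libraries, 3 of each region, out of the 18 libraries of the series. They were chosen by their labels alone. Both regions came from wild-type adult males kept under homeostasis, with no treatment or injury, and both carried the label endothelial cells. The labels give no strain, exact age, number of animals or method of cell isolation. The rest of the series holds 2 further heart regions, VS and OR, and liver endothelial cells. RNA was captured by its poly(A) tail and copied into cDNA over its full length. Total counts per library reached 27720154 in Apex library 2 and were lowest, at 24784130, in LV library 3. Levels are given as CPM (counts brought to a common library size, after TMM normalisation), and fold changes are log2 of Apex over LV.

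Heart endothelium is mostly capillary endothelium, which passes fatty acids from circulating lipoproteins to the muscle beside it, and a smaller part is the endocardium that lines the chambers. Adult heart endothelial cells rarely divide at rest. Atrial and ventricular muscle cells are told apart by their sarcomere and calcium-handling genes, such as the myosin light chains Myl7 (atrial) and Myl2 (ventricular).

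The defining markers of endothelial cells were abundant in both regions. Pecam1, an adhesion molecule of endothelial junctions, was at 2290, 1983 and 1899 CPM in Apex libraries 1 to 3, against 1762, 1873 and 1704 CPM in LV libraries 1 to 3. Kdr, the main receptor for VEGF-A, was at 2090 to 2451 CPM in Apex and 2298 to 2486 CPM in LV. Ptprc, the pan-leukocyte gene, was at 0.830 to 1.47 CPM in Apex and 0.925 to 1.53 CPM in LV. Of 15 endothelial markers and 17 heart capillary markers, 0 passed the test in either direction, with median log2 fold changes of 0.07 and 0.04. Markers of other cells were nonetheless present in both regions: the 17 ventricular cardiomyocyte markers summed to 1681 to 2222 CPM in Apex and 1843 to 2346 CPM in LV, and the 9 pericyte markers to 1087 to 2195 CPM in Apex and 1206 to 1461 CPM in LV.

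In all, 20 of 13169 genes tested passed edgeR's quasi-likelihood test at a Benjamini-Hochberg adjusted p of 0.05, which is 0.152% of them. Of these, 4 were higher in Apex (0.0304%) and 16 were lower (0.121%). At an unadjusted p under 0.05 there were 1227. The median log2 fold change over all genes tested was -0.00395. Among the 20 were 5 unnamed transcript models, 1 higher and 4 lower. The 15 named genes were Angptl4, Mki67 and Npr3, higher in Apex, and Myl7, Sln, Nppa, Slit3, Ccn5, S100a6, Ppcdc, Syn3, Ndufa3, Rps28, Rps29 and Rpl38, lower in Apex. The groups did not overlap for any of these 15, which were picked by p in the same libraries, so this adds no support. Over all genes tested, 7.65% were higher and 8.72% lower without overlap.

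How many genes passed depended strongly on which libraries were fitted. When all 12 heart libraries shared 1 estimate of the spread, 0 genes passed for Apex against LV by edgeR, with 728 at an unadjusted p under 0.05. With 1 library left out, 9 genes passed without Apex 1, 1 without Apex 2, 9 without Apex 3, 3 without LV 1, 15 without LV 2 and 2 without LV 3. Of these, 7 of the 9 without Apex 3 and 7 of the 15 without LV 2 were among the 20, and in the other fits each was. Other tools on the same 6 libraries called more, 137 genes by DESeq2 (1.04%) and 51 by limma's voom with sample quality weights (0.387%), and all 20 were among each. The direction of each of the 20 was the same in 16 of 16 alternative fits. Those fits reuse the same Apex and LV libraries, so the shared direction adds no independent support. Myl7 passed in 15 of these 16, with an adjusted p of 0.0733 by edgeR in the fit on all 12 libraries. Of the 6 fits with 1 library left out, Myl7 passed in 6, Rps29 in 4, Nppa, S100a6 and Sln in 3, Angptl4 in 2, and Slit3, Ppcdc and Rpl38 in 1. Mki67, Npr3, Ccn5, Syn3, Rps28 and Ndufa3 passed in 0 of the 6.

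**Figure D1:**
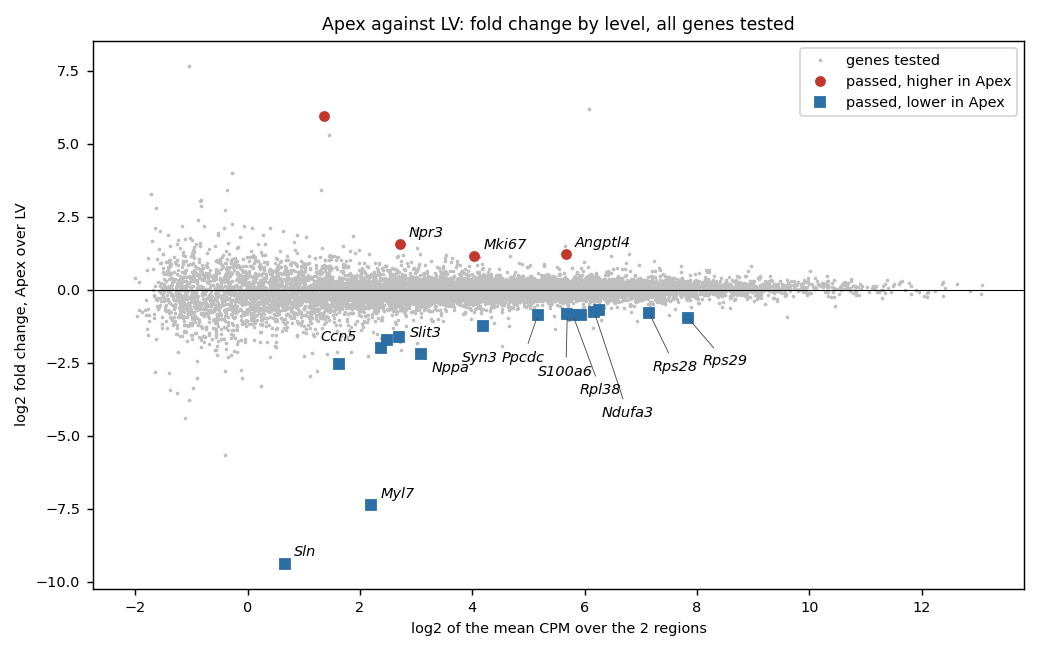
Log2 fold change of Apex over LV (vertical axis) against the log2 mean CPM of both regions (horizontal axis) for the 13169 genes tested. The 4 genes that passed higher in Apex are red circles and the 16 lower are blue squares; Myl7 and Sln lie far below the rest, and the fitted value of Sln, which had 0 counts in Apex, depends on the prior count and is no bound.

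Of the genes known from atrial heart muscle, Myl7, Sln and Nppa were lower in Apex, and Myl7 and Sln were nearly absent there. Myl7, the atrial myosin regulatory light chain (chr11:5896637-5898782, minus strand, mm10), was at 0.113, 0 and 0.0386 CPM in Apex libraries 1 to 3, against 13.2, 6.40 and 7.89 CPM in LV libraries 1 to 3. This was 4 counts over the 3 Apex libraries and 714 over the 3 LV libraries, a ratio of 186 in favour of LV (exact 95% interval 72.2 to 684, counting error only). The log2 fold change was -7.39 ± 0.60 (SE), with an edgeR adjusted p of 0.00128.

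Sln encodes sarcolipin, the atrial inhibitor of the calcium pump SERCA (chr9:53850164-53854560, plus strand). It had no count in the 3 Apex libraries and 5.42, 1.65 and 2.47 CPM in the LV libraries. LV was at least 86.4-fold higher, taking 3 counts over the Apex group as the floor, with an edgeR adjusted p of 0.0272. Nppa encodes atrial natriuretic peptide (chr4:148000722-148002079, plus strand). It was at 2.64, 2.66 and 3.75 CPM in Apex, against 16.6, 10.02 and 15.1 CPM in LV, a log2 fold change of -2.204 ± 0.26 (SE) and an edgeR adjusted p of 0.0133. An antisense transcript overlaps Nppa, and it is not known whether reads were counted by strand.

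The 12 genes of the atrial cardiomyocyte list included 11 that the table holds and 10 that passed the count filter. Of the 10, 3 passed the test as lower in Apex (Myl7, Sln and Nppa), against 0.121% of all genes tested. A lower level in Apex was found for 7, and 7 were lower with no overlap between the groups, against 8.72% of all genes tested. The median of the 10 was -1.75, and the same with Sln at its bound. Myl7 and Sln passed the filter through the LV libraries alone, so the direction among the 10 is partly set by the filter. Without a filter, 8 of 11 were lower and the median was -1.44. The 3 members with a higher fitted level in Apex were Clu, Kcna5 and Myh6, of which Clu did not overlap between the groups (137 to 150 CPM in Apex and 101 to 128 CPM in LV; edgeR adjusted p = 0.496). The list summed to 1114, 649 and 660 CPM in Apex and 685, 765 and 559 CPM in LV, which overlap; Kcna5, also in the heart capillary list, made up 861, 394 and 381 CPM of this in Apex and 412, 492 and 275 CPM in LV. Dkk3, a secreted modulator of Wnt signalling, was at 3.09, 2.01 and 2.63 CPM in Apex, against 15.9, 6.40 and 9.82 CPM in LV, and missed the threshold (edgeR adjusted p = 0.0585). Of the 17 ventricular genes, 16 passed the filter, 12 had a lower level in Apex, 2 of them at an unadjusted p under 0.05, 0 passed the test and the median was -0.12. The difference between the atrial and ventricular lists was not tested. Myl2, the ventricular light chain, was at 102, 110 and 131 CPM in Apex, against 136, 140 and 158 CPM in LV (log2 fold change -0.34 ± 0.12, SE; edgeR adjusted p = 0.417). In bulk RNA, fewer cells of a type and less RNA per cell cannot be told apart. LV library 1 had the highest level of Myl7, Sln and Nppa. Without that library, 11 genes of the atrial list passed the filter in place of 10, and the median of the 11 was -0.98.

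The promoters of Myl7 and Nppa are shown because both hold a GATA motif, the letters that GATA factors such as the cardiac regulator Gata4 bind. The motif was searched as AGATAA or TGATAA on both strands, in windows of 250 bases before to 50 after the RefSeq start, in GRCm38.p6. The windows are chr11:5898733-5899032 (minus strand) for Myl7 and chr4:148000472-148000771 (plus strand) for Nppa, each read 5′ to 3′ along the gene with the motif in capitals.
Myl7: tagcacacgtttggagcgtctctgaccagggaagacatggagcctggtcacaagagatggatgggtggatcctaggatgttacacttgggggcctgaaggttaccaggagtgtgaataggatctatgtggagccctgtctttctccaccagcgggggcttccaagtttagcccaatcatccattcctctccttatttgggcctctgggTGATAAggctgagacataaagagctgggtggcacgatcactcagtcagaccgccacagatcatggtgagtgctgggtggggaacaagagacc
Nppa: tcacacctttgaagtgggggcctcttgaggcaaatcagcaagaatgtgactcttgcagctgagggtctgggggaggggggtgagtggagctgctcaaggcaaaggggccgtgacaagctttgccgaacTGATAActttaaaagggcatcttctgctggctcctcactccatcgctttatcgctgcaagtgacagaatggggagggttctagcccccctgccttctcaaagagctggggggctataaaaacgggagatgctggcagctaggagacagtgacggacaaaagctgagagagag
Of the 7 atrial list genes with a window, 4 held the motif, against 12.2% of the 10478 genes tested that had one. A match of this kind is a description of the letters, not a binding site. Gata4 itself was at 9.88, 11.4 and 14.4 CPM in Apex and 10.02, 15.6 and 17.8 CPM in LV, which overlap.

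**Figure D2:**
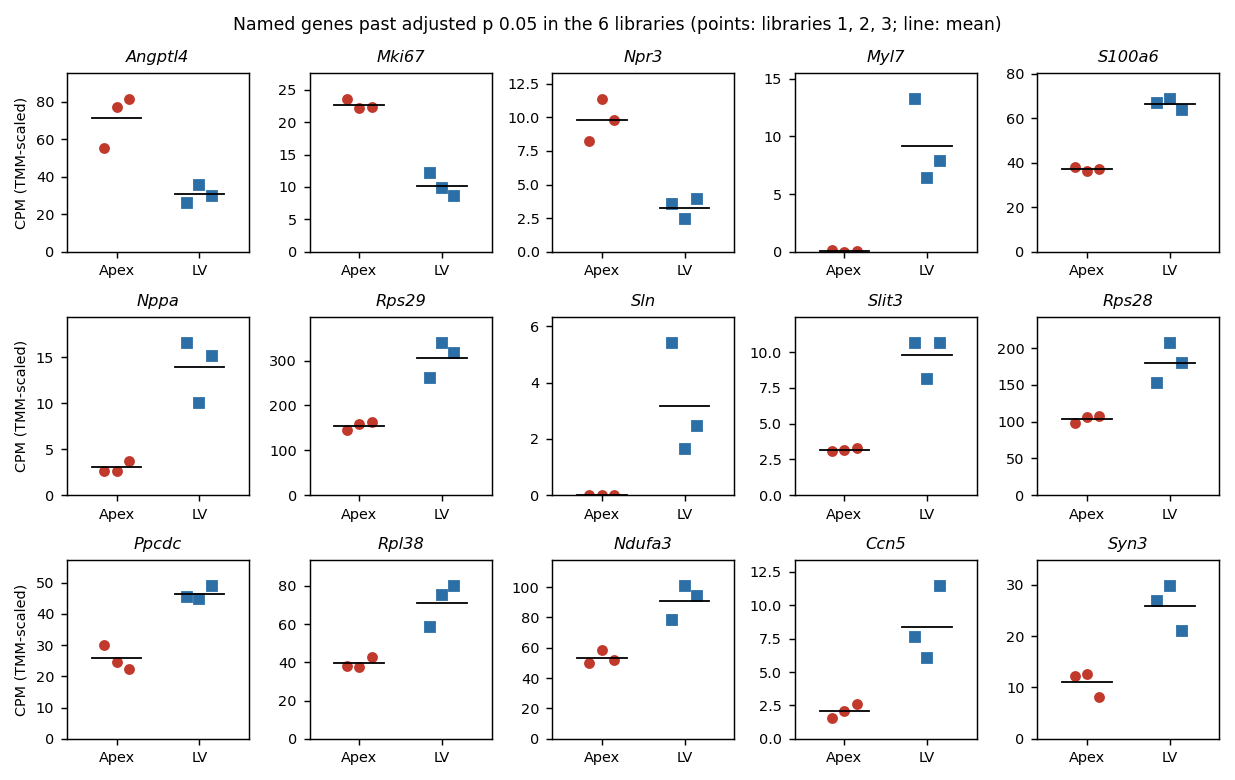
CPM of the 15 named genes that passed, in each library (points, libraries 1 to 3 from left to right in a region) with the mean of 3 as a line; Apex is on the left of each panel and LV on the right, and each vertical axis starts at 0. No panel shows an overlap between the regions, but the genes were picked by p in these same libraries.

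Genes of mitosis were higher in Apex. Mki67, which encodes the proliferation antigen Ki-67 (chr7:135689784-135716361, minus strand), was at 23.5, 22.1 and 22.4 CPM in Apex libraries 1 to 3, against 12.2, 9.90 and 8.60 CPM in LV libraries 1 to 3. Apex over LV was 1.15 ± 0.16 (SE) in log2, with an edgeR adjusted p of 0.0272. The highest LV library was well under the lowest Apex library.

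All 28 genes of the mitosis list passed the count filter, and all 28 were higher in Apex by their fitted fold change, though only Mki67 passed the test. At an unadjusted p under 0.05 there were 23, against 4.07% of all genes tested in that direction, and 20 did not overlap between the groups, against 7.65%. The median log2 fold change was 0.91. Prc1, which bundles the microtubules of the spindle midzone, was at 14.9, 15.3 and 16.1 CPM in Apex, against 6.28, 9.94 and 5.81 CPM in LV (edgeR adjusted p = 0.138). Cenpf, a kinetochore protein, was at 11.1, 9.60 and 7.73 CPM in Apex, against 5.01, 2.82 and 4.52 CPM in LV (edgeR adjusted p = 0.185).

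Not every gene of division separated the regions. Top2a, the topoisomerase that untangles chromosomes before they part, was at 27.7, 20.4 and 25.2 CPM in Apex, against 27.5, 11.9 and 5.14 CPM in LV, where LV library 1 was as high as the Apex libraries. The 28 genes summed to 239, 240 and 255 CPM in Apex, against 177, 137 and 100.0 CPM in LV. Without LV library 3, the lowest, 27 of the 28 were higher and the median was 0.76. Mki67 did not pass when any 1 of the 6 libraries was left out (edgeR adjusted p between 0.0518 and 0.218), nor in the fit on all 12 (0.929).

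Genes of DNA replication separated the regions less often. Of 24, 17 were higher and 7 lower, 0 passed and the median was 0.17. Without overlap, 5 were higher (7.65% of all genes tested) and 1 was lower (8.72%). At an unadjusted p under 0.05, 1 was higher (4.07%). Mcm2, a subunit of the replicative helicase, was at 23.3, 25.7 and 22.0 CPM in Apex and 24.0, 24.8 and 16.5 CPM in LV. Rrm2, a subunit of ribonucleotide reductase, was at 11.5, 11.2 and 16.3 CPM in Apex, against 7.74, 10.6 and 6.91 CPM in LV (edgeR adjusted p = 0.435). Of 19 regulators of entry into S phase, 15 were higher and 0 passed. Foxm1, the transcription factor that drives mitotic genes, was at 6.94, 9.53 and 10.01 CPM in Apex, against 6.09, 4.30 and 2.79 CPM in LV (edgeR adjusted p = 0.348), and Ccnd1, the cyclin D1 gene, overlapped at 577 to 754 CPM in Apex and 531 to 787 CPM in LV. The difference between the mitosis and replication lists was not tested.

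Mitotic genes are known to share a promoter element, the cell cycle genes homology region (CHR), through which complexes containing MuvB or Foxm1 act. The letters TTTGAA or TTCGAA were searched on both strands in the same promoter windows. They were found in 19 of the 24 mitosis genes with a window, in 5 of 20 replication genes, and in 16.5% of the genes tested that had one. CCAAT, the letters bound by NF-Y, was found in 18 of the 24, 13 of the 20 and 43.2%. Promoters of the 3 mitosis genes with the smallest p in this comparison are shown from GRCm38.p6, with the CHR letters in capitals: Mki67 at chr7:135716330-135716629 (minus strand), Prc1 at chr7:80294201-80294500 (plus strand, 1 of its 2 RefSeq windows) and Cenpf at chr1:189688037-189688336 (minus strand).
Mki67: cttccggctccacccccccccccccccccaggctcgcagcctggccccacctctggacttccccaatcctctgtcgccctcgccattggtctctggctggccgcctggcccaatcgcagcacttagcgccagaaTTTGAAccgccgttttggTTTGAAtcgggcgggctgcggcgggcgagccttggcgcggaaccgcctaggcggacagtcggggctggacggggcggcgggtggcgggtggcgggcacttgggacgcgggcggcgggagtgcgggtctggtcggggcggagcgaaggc
Prc1: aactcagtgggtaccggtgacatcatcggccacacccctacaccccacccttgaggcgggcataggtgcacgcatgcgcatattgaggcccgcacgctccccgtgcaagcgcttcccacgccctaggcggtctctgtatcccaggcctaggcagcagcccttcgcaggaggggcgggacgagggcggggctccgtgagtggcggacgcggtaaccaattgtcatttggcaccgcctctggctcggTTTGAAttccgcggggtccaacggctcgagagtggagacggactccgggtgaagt
Cenpf: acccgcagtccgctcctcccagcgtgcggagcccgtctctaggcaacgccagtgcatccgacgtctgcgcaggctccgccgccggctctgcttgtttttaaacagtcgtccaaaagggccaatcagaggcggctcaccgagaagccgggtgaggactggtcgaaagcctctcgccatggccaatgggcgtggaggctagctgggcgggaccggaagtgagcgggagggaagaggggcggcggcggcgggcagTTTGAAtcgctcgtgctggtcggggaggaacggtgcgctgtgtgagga
Mki67 holds the letters at 2 places in its window, and Prc1 and Cenpf at 1 each.

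**Figure D3:**
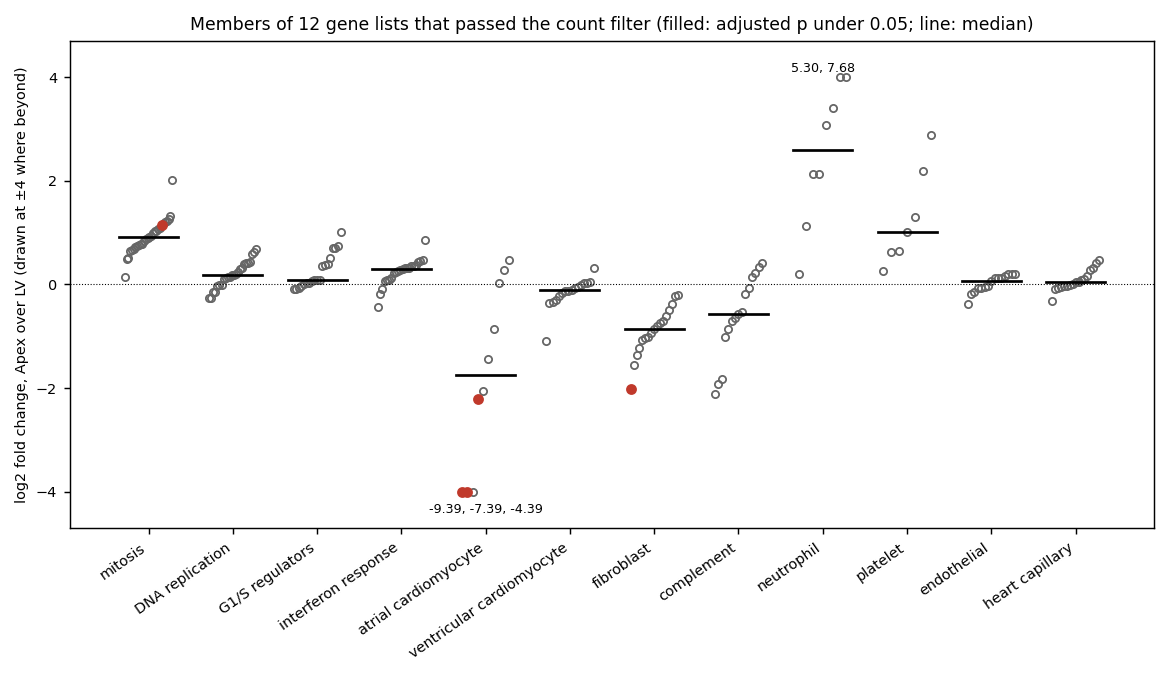
Log2 fold change of Apex over LV for the members of 12 gene lists that passed the count filter (circles, sorted within a list), with the list's median as a line and genes past adjusted p 0.05 filled in red. Values beyond 4 either way are drawn at 4 and written out, and those of Sln (-9.39) and Mpo (7.68) depend on the prior count; the mitosis and fibroblast members lie on opposite sides of 0.

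Npr3 and Nppa, both of the natriuretic peptide system, went in opposite directions. Npr3 encodes the clearance receptor that removes natriuretic peptides from the circulation and is known as an endocardial marker in the heart (chr15:11839896-11907287, minus strand). It was at 8.26, 11.4 and 9.81 CPM in Apex libraries 1 to 3, against 3.55, 2.41 and 3.89 CPM in LV libraries 1 to 3. This gave a log2 fold change of 1.58 ± 0.25 (SE), with an edgeR adjusted p of 0.0493. Of the 8 genes of the system, 7 passed the count filter, and the remaining 5 of these did not pass the test. Nppb, the B-type peptide gene, was at 2.11, 1.26 and 1.97 CPM in Apex and 1.94, 1.97 and 2.44 CPM in LV, and Npr2, the receptor for the C-type peptide, was at 41.7 to 49.0 CPM in Apex and 47.0 to 58.4 CPM in LV.

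The other endocardial genes did not pass the test. Of 15, 13 passed the count filter, 8 were higher and 5 lower, 1 passed (Npr3), and the median was 0.04. The list summed to 1037 to 1111 CPM in Apex and 1008 to 1113 CPM in LV. Nfatc1, a transcription factor of valve-forming endocardium, was at 96.2, 105 and 96.0 CPM in Apex and 106, 114 and 92.7 CPM in LV. Cytl1, a secreted cytokine-like protein, was at 10.98, 17.9 and 19.6 CPM in Apex and 8.41, 3.46 and 13.3 CPM in LV, which overlap. Tmem108 was at 2.87, 4.17 and 4.21 CPM in Apex, against 1.68, 0.805 and 2.59 CPM in LV, without overlap (edgeR adjusted p = 0.456).

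Angptl4 was the gene of lipid handling that differed. It encodes a secreted inhibitor of lipoprotein lipase and is a known target of PPAR transcription factors and of hypoxia (chr17:33773750-33781830, minus strand). It was at 55.2, 77.2 and 81.4 CPM in Apex libraries 1 to 3, against 26.2, 35.7 and 29.8 CPM in LV libraries 1 to 3, so each Apex library was above each LV library. The log2 fold change was 1.22 ± 0.17 (SE), with an edgeR adjusted p of 0.0272. Of 21 genes of PPAR and fatty acid handling, 14 were higher and 7 lower, 1 passed and the median was 0.10. Pparg, a PPAR transcription factor, was at 191, 143 and 172 CPM in Apex, against 108, 142 and 130 CPM in LV, separated by a narrow margin (edgeR adjusted p = 0.393). Cd36, the fatty acid transporter of capillaries, was at 5564, 5845 and 6057 CPM in Apex, against 4297, 5011 and 5113 CPM in LV (edgeR adjusted p = 0.573). Lpl, the lipase that Angptl4 inhibits, was at 1163, 718 and 725 CPM in Apex and 631, 809 and 642 CPM in LV, which overlap. Fabp4, a fatty acid binding protein, overlapped as well, at 3513 to 4178 CPM in Apex and 3217 to 4358 CPM in LV.

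The guidance gene Slit3 and the matrix gene Ccn5 were among those lower in Apex. Slit3 encodes a secreted ligand of Robo receptors (chr11:35121224-35708507, plus strand) and was at 3.09, 3.16 and 3.28 CPM in Apex libraries 1 to 3, against 10.7, 8.09 and 10.6 CPM in LV libraries 1 to 3. The log2 fold change was -1.62 ± 0.22 (SE), with an edgeR adjusted p of 0.0272 in the 6 libraries and 0.0748 in the fit on all 12. Of the 10 Slit and Robo genes, 8 passed the count filter, 5 were lower and 3 higher, and the median was -0.04. Slit3 alone passed the test. Robo2, a receptor for Slits, was at 4.41, 6.29 and 5.29 CPM in Apex, against 8.60, 7.89 and 9.46 CPM in LV (edgeR adjusted p = 0.374). Slit2 stayed under 1 CPM in each of the 6 libraries, and Slit1 had no count.

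Ccn5 encodes a matricellular protein of the CCN family (chr2:163820861-163833146, plus strand). It was at 1.55, 2.05 and 2.63 CPM in Apex, against 7.62, 6.08 and 11.4 CPM in LV, a log2 fold change of -2.01 ± 0.32 (SE) and an edgeR adjusted p of 0.0461. It is also 1 of the 17 genes of the fibroblast list, all of which passed the count filter and had a lower fitted level in Apex, with a median of -0.86. At an unadjusted p under 0.05 there were 5, against 5.25% of all genes tested in that direction, and 5 did not overlap between the groups, against 8.72%. The list summed to 1380, 679 and 1053 CPM in Apex, against 1737, 1233 and 2795 CPM in LV, so Apex library 1 was above LV library 2.

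Single fibroblast genes differed in whether the regions overlapped. Fbln1, a matrix glycoprotein, was at 34.3, 16.8 and 24.0 CPM in Apex, against 68.7, 45.2 and 78.3 CPM in LV (edgeR adjusted p = 0.310). Col14a1, a fibril-associated collagen, was at 4.45, 2.26 and 1.74 CPM in Apex, against 9.90, 5.11 and 9.86 CPM in LV (edgeR adjusted p = 0.239). Dcn, the small proteoglycan decorin, was at 149, 90.5 and 149 CPM in Apex and 199, 125 and 380 CPM in LV, and Pdgfra, the defining receptor of fibroblasts, at 10.2, 8.20 and 5.45 CPM in Apex and 10.2, 7.12 and 16.3 CPM in LV; both overlap. Without LV library 3, the highest, 14 of the 17 were lower and the median was -0.49. No fibroblast gene passed when any 1 of the 6 libraries was left out; for Ccn5 the edgeR adjusted p then lay between 0.0542 and 0.292. What part fibroblast RNA had in the levels of Slit3, Ccn5 and the genes of the next paragraph was not tested.

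Several complement genes and the Wnt antagonist Sfrp2 were at a lower level in Apex, none past the edgeR test. Of 19 complement genes, 15 passed the count filter, 11 were lower and 4 higher, and the median was -0.57. DESeq2 called 2 of the 15 lower, against 99 of all 13169 genes tested. C4b was at 0.792, 0.935 and 2.32 CPM in Apex, against 5.53, 4.47 and 7.54 CPM in LV (edgeR adjusted p = 0.137). C7, a component of the membrane attack complex, was at 4.60, 3.20 and 2.90 CPM in Apex, against 12.4, 6.24 and 19.2 CPM in LV (edgeR adjusted p = 0.195). Neither gene overlapped between the regions. Of the 15, 4 were lower without overlap, against 8.72% of all genes tested. C3, the central component, was at 12.3, 5.82 and 10.7 CPM in Apex, against 25.3, 22.3 and 62.2 CPM in LV (edgeR adjusted p = 0.411). Sfrp2, a secreted Wnt antagonist, was at 2.53, 1.90 and 1.35 CPM in Apex, against 6.61, 3.66 and 4.95 CPM in LV (edgeR adjusted p = 0.236). Of the 20 Wnt genes, 14 passed the count filter, 10 were lower and 4 higher, 0 passed and the median was -0.10.

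**Figure D4:**
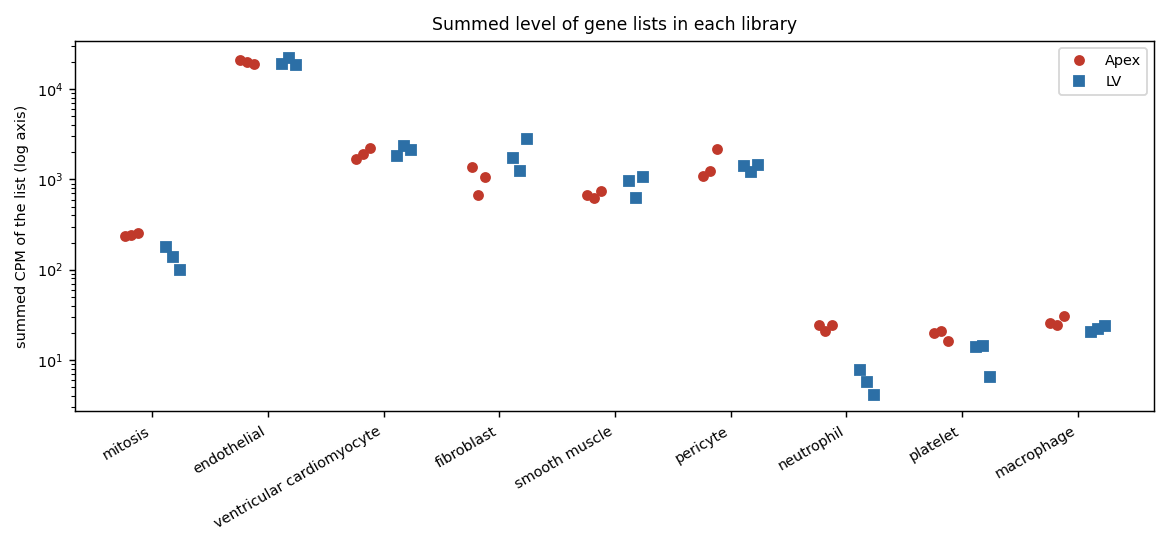
Summed CPM of 9 gene lists in each library (logarithmic vertical axis; points, libraries 1 to 3 from left to right), with Apex as red circles left of LV as blue squares. The regions are apart for the mitosis, neutrophil, platelet and macrophage lists and overlap for the endothelial, ventricular, fibroblast, smooth muscle and pericyte lists. Lyz2 alone made up most of the macrophage sum in Apex, and 5 of the 9 macrophage genes tested were lower in Apex.

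Short transcripts were lower in Apex as a class, and ribosomal protein genes were prominent among them. Rps29, of the small ribosomal subunit (chr12:69157722-69159186, minus strand), was at 145, 158 and 162 CPM in Apex libraries 1 to 3, against 260, 340 and 318 CPM in LV libraries 1 to 3. The log2 fold change was -0.98 ± 0.12 (SE), with an edgeR adjusted p of 0.0133. Rps28, also of the small subunit (chr17:33819027-33824562, minus strand), was at 97.9, 106 and 108 CPM in Apex, against 153, 208 and 180 CPM in LV (edgeR adjusted p = 0.0346). Rpl38, of the large subunit (chr11:114668524-114672331, plus strand), was at 38.0, 37.7 and 42.6 CPM in Apex, against 58.7, 75.2 and 79.8 CPM in LV (edgeR adjusted p = 0.0346). Ndufa3, an accessory subunit of respiratory complex I (chr7:3617373-3620327, plus strand), was at 50.2, 58.5 and 51.7 CPM in Apex, against 78.1, 100.5 and 94.0 CPM in LV (edgeR adjusted p = 0.0442).

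These 4 genes have annotated transcripts of 367.5 to 433 bases, by the median of the GENCODE transcripts of each. Of the 78 genes tested with a transcript of up to 500 bases, 82.1% were lower in Apex and 4 passed, those 4, with a median log2 fold change of -0.35. From 500 to 1000 bases, 73.9% of 927 genes were lower, with a median of -0.14. In the 3 classes of longer transcripts the medians lay between -0.02 and 0.04. In the shortest class the median deviation from the gene's mean was -0.25, -0.16 and -0.12 log2 units in Apex libraries 1 to 3, against 0.10, 0.16 and 0.29 in LV libraries 1 to 3, so the regions did not overlap.

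Among all 78 ribosomal protein genes, length went with the size of the difference. The 11 with a transcript of up to 500 bases were lower in 11 of 11, with a median of -0.50. Of these, 3 passed, against 0.121% of all genes tested in that direction. The 67 longer ones were lower in 55, 0 passed, and the median was -0.17. Rps3, at 571, 521 and 581 CPM in Apex and 531, 519 and 608 CPM in LV, had no lower mean in Apex. It does not stand for the 55 that were lower. Of the 26 genes of the oxidative phosphorylation list, 19 were lower, 10 of them at an unadjusted p under 0.05 (5.25% of all genes tested), and the median was -0.16. Ndufa1, another complex I subunit, was at 38.9, 43.0 and 45.7 CPM in Apex, against 62.0, 61.4 and 63.6 CPM in LV (edgeR adjusted p = 0.0903).

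When each library was corrected for its own trend with transcript length, a setting chosen after the data were seen, 10 genes passed (0.0759%), and all of them were among the 20. The 6 named ones were Angptl4, Mki67, Myl7, Nppa, Slit3 and Sln. EdgeR adjusted p-values then were 0.056 for Rps29, 0.293 for Rps28, 0.245 for Rpl38 and 0.301 for Ndufa3. S100a6, Ppcdc, Ccn5, Npr3 and Syn3 lay between 0.0546 and 0.0722. The median of the oxidative phosphorylation list was 0.00 under the correction, and that of a list of 26 ribosomal protein genes turned to 0.03, against -0.11 without it. What part transcript length, or the making of the libraries, had in these levels was not tested. Rps28, Rps29 and Rpl38 also have near-identical pseudogene copies, and reads could be split between copies.

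**Figure D5:**
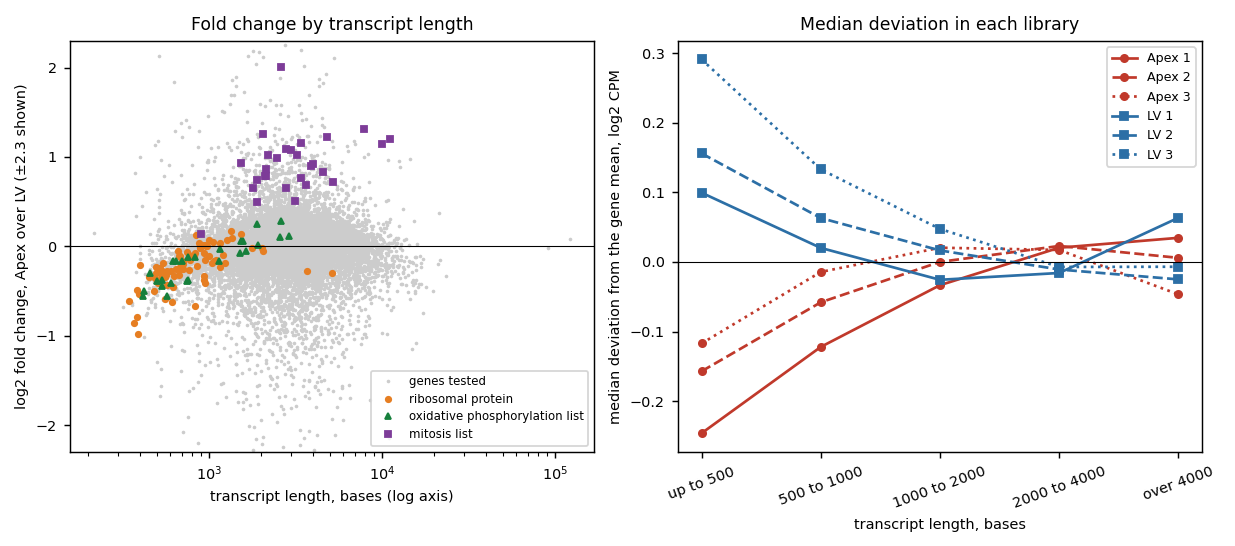
Left, log2 fold change of Apex over LV (shown within 2.3 either way) against transcript length (logarithmic axis) for the genes tested, with ribosomal protein genes, the oxidative phosphorylation list and the mitosis list coloured. Right, median deviation of each library from the gene's mean, in log2 CPM, in 5 classes of transcript length; under 500 bases the 3 Apex libraries lie at -0.25 to -0.12 and the 3 LV libraries at 0.10 to 0.29.

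The other named genes that fell were S100a6, Ppcdc and Syn3. S100a6, a small calcium-binding protein (chr3:90612882-90624181, plus strand), was at 37.9, 36.4 and 37.1 CPM in Apex libraries 1 to 3, against 67.0, 68.5 and 63.5 CPM in LV libraries 1 to 3. The log2 fold change was -0.84 ± 0.10 (SE), with an edgeR adjusted p of 0.0133, and the spread within each region was small beside it. Ppcdc, an enzyme of coenzyme A synthesis (chr9:57385095-57440124, minus strand), was at 29.9, 24.7 and 22.4 CPM in Apex, against 45.3, 44.9 and 48.8 CPM in LV (edgeR adjusted p = 0.0346). Syn3, a synapsin known from nerve terminals (chr10:86055125-86498896, minus strand), was at 12.2, 12.6 and 8.11 CPM in Apex, against 26.8, 29.7 and 20.9 CPM in LV (edgeR adjusted p = 0.0493). Syn3 spans Timp3, an inhibitor of metalloproteinases on the opposite strand, which was at 1431 to 1985 CPM in Apex and 1363 to 1473 CPM in LV. Without knowing whether counting used strand, reads of the pair cannot be told apart, and the same holds for Rps28 with Kank3 and for Ndufa3 with Tfpt.

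Genes of neutrophils were few in counts and higher in Apex. Of 13, 8 passed the count filter, and these 8 were higher in Apex, 7 of them without overlap, against 7.65% of all genes tested, and 0 past the test. Genes such as Mpo and Chil3 passed the filter through the Apex libraries alone, so the direction among those 8 is partly set by the filter; without a filter, 13 of 13 were higher and 0 passed. Mpo, the granule peroxidase, was counted 33, 22 and 23 times in Apex libraries 1 to 3 and never in the LV libraries, which makes Apex at least 25.0-fold higher at a floor of 3 counts over the LV group (edgeR adjusted p = 0.067). Chil3, a myeloid chitinase-like protein, was counted 175, 126 and 127 times in Apex libraries, against 0, 10 and 0 times in LV, a ratio of 41.1 (exact 95% interval 22.1 to 86.4, counting error only; edgeR adjusted p = 0.111). Ngp, a neutrophil granule protein, was counted 115, 140 and 109 times in Apex libraries, against 24, 9 and 0 times in LV. The 13 genes together summed to 21.1 to 24.5 CPM in Apex and 4.12 to 7.77 CPM in LV, beside 19070 to 21270 CPM in Apex and 18580 to 22470 CPM in LV for the 15 endothelial markers.

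Platelet and macrophage genes were also at a low level. Of 7 platelet genes, 7 were higher in Apex, 4 without overlap (7.65% of all genes tested), with a median of 1.00, and 0 passed. The stricter filter left 3 of them, with a median of 0.64. Without LV library 3, 6 were higher and 1 lower, with a median of 0.77. Ppbp, a platelet chemokine, was at 2.91, 4.31 and 3.21 CPM in Apex, against 1.72, 2.37 and 1.10 CPM in LV (edgeR adjusted p = 0.461). Lyz2, the lysozyme of myeloid cells, was at 16.7, 16.4 and 17.3 CPM in Apex, against 11.1, 12.1 and 9.70 CPM in LV (edgeR adjusted p = 0.239), while 5 of the 9 macrophage genes that passed the filter were lower. Red cell genes overlapped, with sums of 1348 to 3094 CPM in Apex and 1914 to 2710 CPM in LV.

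Most interferon response genes were slightly higher in Apex, none of them past the test. Of 24, 22 passed the count filter, 19 were higher and 3 lower, 12 of them higher at an unadjusted p under 0.05 (4.07% of all genes tested) and 11 higher without overlap (7.65%). None of the 22 passed the edgeR test after adjustment, and by DESeq2 0 passed either. The median was 0.29, and 0.20 without Apex library 3. Ifit2 was at 151, 163 and 198 CPM in Apex, against 124, 119 and 130 CPM in LV (edgeR adjusted p = 0.236). Ifi44 was at 73.2, 62.7 and 62.7 CPM in Apex, against 47.5, 53.4 and 41.8 CPM in LV (edgeR adjusted p = 0.239). Ifit1, which blocks translation of viral RNA, was at 103, 127 and 254 CPM in Apex and 75.0, 84.0 and 110 CPM in LV, where the wide range of Apex reaches into that of LV.

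Several further genes with a small unadjusted p did not pass the threshold. Among those higher in Apex, Pgf, the Flt1 ligand placental growth factor, came nearest, at 40.7, 35.3 and 49.5 CPM in Apex, against 25.8, 23.3 and 21.0 CPM in LV (edgeR adjusted p = 0.065). Klhl4 was at 77.6, 81.6 and 86.7 CPM in Apex, against 57.1, 57.3 and 58.8 CPM in LV (edgeR adjusted p = 0.104). Prkcq, a kinase of the protein kinase C family, was at 9.24, 8.84 and 7.92 CPM in Apex, against 4.04, 3.58 and 4.44 CPM in LV (edgeR adjusted p = 0.122). Both are tight within each region. Prcp, a lysosomal carboxypeptidase that cleaves angiotensin, Rhox5, an X-linked homeobox gene, and Mest, an imprinted gene, had log2 fold changes of 0.52, 1.83 and 0.66 and edgeR adjusted p-values of 0.135, 0.147 and 0.179.

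Among those lower in Apex, Inka2, an inhibitor of the kinase Pak4, was at 17.1, 18.5 and 16.3 CPM in Apex, against 29.0, 28.3 and 29.96 CPM in LV (edgeR adjusted p = 0.0546). Spock2, an extracellular proteoglycan, was at 12.9, 16.5 and 12.6 CPM in Apex, against 25.6, 29.7 and 24.1 CPM in LV (edgeR adjusted p = 0.0594). Tbx3, a T-box transcription factor of the cardiac conduction system, was at 83.6, 98.3 and 91.2 CPM in Apex, against 127, 140 and 132 CPM in LV (edgeR adjusted p = 0.0824). The regions are apart for each of these 3. Tbx20, another cardiac T-box factor, was at 2.41, 4.64 and 7.73 CPM in Apex and 10.05, 6.72 and 10.8 CPM in LV, which overlap. Tuba4a, an alpha-tubulin, Sec61g, a subunit of the endoplasmic reticulum translocon, Tomm7, of the mitochondrial import complex, and Rpl37, of the large ribosomal subunit, had log2 fold changes of -0.69, -0.61, -0.59 and -0.66, with edgeR adjusted p-values between 0.0592 and 0.0824.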

How the data were processed

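Per the labels, total RNA was extracted from endothelial cells, poly(A) RNA was copied with oligo(dT) primers into full-length cDNA, amplified by PCR, fragmented and sequenced as paired reads. The submitters' processing notes name the build mm10; the aligner, the counting program, its annotation and its use of strand are not given in the sources used here. Per the file headers, the deposited heart table gives read counts and TPM for each library. The deposited counts are expected counts, estimated by the authors and not whole for every gene, and were rounded. TPM, which the authors normalised by length and depth per the file headers, entered no test.

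The 6 libraries were tested alone with edgeR 4.0.16 in R 4.3.3: default filter (minimum count 10), TMM scaling, robust quasi-likelihood F test, 1 mean per region, Benjamini-Hochberg adjustment over 13169 of 17513 genes and a threshold of 0.05. The standard error (SE) was taken as the absolute log2 fold change divided by the root of the F statistic. Nothing in the labels says that libraries came from separate animals, so p-values measure the spread between these libraries, which may be technical. Replicates of a region differed from each other by more than sampling noise (chi-square per degree of freedom 32.9 to 129). Mitochondrially encoded genes were not analysed here. Columns of the liver libraries (12) were not used.

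Gene lists were written from general knowledge, and the members and lists were chosen with earlier results of these data known. There were 56 lists, and only some of them are described. Genes named were those past the threshold other than unnamed models; the 8 in each direction with the smallest p that did not pass and averaged at least 5 CPM in the higher region; up to 6 members of each list described, by smallest p or place in the list; and Pecam1, Cdh5, Kdr, Ptprc, Mki67 and Top2a. Transcript lengths and gene positions came from GENCODE vM21 (mm10) and promoters from RefSeq (GRCm38.p6). Intervals and floors cover counting error only. Alternatives were DESeq2 1.42.0, voom with sample quality weights in limma 3.58.1, other scaling and filters, no robust option, all 12 heart libraries in 1 model, the replicate number as a block, each library left out, and a correction for transcript length. The workflow was tested on simulated data.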

Additional observations from a re-analysis of the deposited data

How the results depend on the processing

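The 20 calls (4 higher, 16 lower in Apex) became 137 (38 higher, 99 lower) with DESeq2, 51 (9 and 42) with voom and sample quality weights, 4 (0 and 4: Myl7, Nppa, Rps29 and S100a6) without edgeR's robust option, 0 (0 and 0) with all 12 heart libraries, and 10 (3 and 7) with the correction for transcript length, which was chosen after the data were seen. The cause of these moves was not tested. Leaving out 1 library gave 1 to 15 calls, 0 to 3 higher and 1 to 12 lower. With RLE size factors there were 18 calls, without scaling 21, without a filter 29 and with a minimum count of 30 there were 26. Same-numbered libraries of the regions are not known to be paired: their deviations correlated at 0.125, 0.0429 and 0.165, each library correlating best with its own number, which is a hint from the data and not from the design. With the replicate number as a block, 56 genes passed (13 higher, 43 lower), all 20 among them. Ptprc, at about 1 CPM, had a log2 fold change of -0.05, 0.12 with voom and between -0.23 and 0.15 when 1 library was left out. The median of the neutrophil list ranged from 2.13 with the stricter filter to 3.50 with voom, against 2.60. Depth limits Myl7, Sln, Mpo and Chil3, with 0 to 10 counts in the lower region.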

Other observations

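Apln, which encodes the peptide apelin of sprouting endothelial tip cells, was at 113, 74.0 and 64.9 CPM in Apex, against 48.7, 48.8 and 33.3 CPM in LV, without overlap (edgeR adjusted p = 0.318). Of the 12 tip cell genes, 8 were higher and 0 passed, and Esm1, a proteoglycan of tip cells, overlapped at 14.5 to 25.0 CPM in Apex and 17.3 to 29.0 CPM in LV. Vegfd, a ligand of the lymphatic receptor Flt4, was counted 2, 5 and 0 times in Apex libraries, against 21, 14 and 37 times in LV (edgeR adjusted p = 0.274). Of 17 hypoxia genes, 16 passed the count filter, 12 were higher and 0 passed; Hif1a was at 103, 96.6 and 107 CPM in Apex, against 80.5, 90.7 and 88.5 CPM in LV. Fbln5, an elastic fibre protein of arteries, was at 231, 221 and 211 CPM in Apex, against 173, 143 and 179 CPM in LV (edgeR adjusted p = 0.239), while the 15 arterial genes had a median of 0.11.

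Clock genes were uneven. Nr1d2, a repressor of the circadian clock, was at 28.5, 17.9 and 23.4 CPM in Apex, against 15.4, 10.7 and 11.9 CPM in LV (edgeR adjusted p = 0.195). Hlf, a clock output factor, was at 2.38, 2.52 and 3.98 CPM in Apex, against 7.06, 5.87 and 4.75 CPM in LV (edgeR adjusted p = 0.363). Arntl, the core activator, overlapped at 42.6 to 53.5 CPM in Apex and 45.2 to 50.7 CPM in LV. Fos, an immediate early gene, was among the most abundant transcripts and varied within both regions, at 4459, 8792 and 10901 CPM in Apex and 5289, 11585 and 9896 CPM in LV, with 0 of 16 immediate early genes past the test.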
